A study of Homo sapiens with 4 samples.

Results

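The mitochondrial ribosomal protein genes of LNCaP-DaroR cells were examined after knockdown of the long non-coding RNA LOC730101. The members were the rows of the deposited count table whose gene name consists of MRPL or MRPS, a number and at most a letter A, B or C. This rule found 78 of the 60606 genes of the table, 49 named MRPL and 29 named MRPS, and 77 of them had enough reads to be tested. No measured value entered the rule. LNCaP-DaroR is a line of LNCaP prostate cancer cells that was adapted to the antiandrogen darolutamide and then kept in 10 µM of it for 12 months. Both groups consisted of these resistant cells. The siControl group, 2 libraries, was transfected with control siRNA, and the siLOC730101 group, 2 libraries, with a pool of siRNAs against LOC730101, each at 20 nM. The comparison asks how the transcripts of the mitochondrial ribosome differ when LOC730101 is depleted in darolutamide-resistant cells. A single resistant line was used, and no parental LNCaP library is part of the comparison.

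Mitochondria carry their own ribosome, which translates the few messenger RNAs of the mitochondrial genome into core subunits of the respiratory chain and of ATP synthase. Its ribosomal RNAs come from mitochondrial DNA, while its proteins are encoded in the nucleus, made in the cytosol and imported. Some of these proteins descend from bacterial ribosomal proteins, and others were added during the evolution of mitochondria. The MRPL genes mostly encode proteins of the large subunit, which forms peptide bonds, and the MRPS genes proteins of the small subunit, which reads the messenger RNA. The names are not a strict guide, since the products of MRPS18A and MRPS30 sit in the large subunit and MRPS36 encodes a protein now assigned to the 2-oxoglutarate dehydrogenase complex. Of the 78 members, 51 were assigned to the large subunit, 26 to the small subunit and MRPS36 to neither, and 45 have a bacterial counterpart while 31 are specific to mitochondria.

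The libraries held between 39213498 and 53368158 counts, of which the members took between 0.41% and 0.474%. Levels are given as normalized CPM, the CPM (count share) after TMM scaling of the libraries. LOC730101, listed in the table as ENSG00000216775, was at 47.4 and 50.6 normalized CPM in the siControl libraries and at 15.4 and 17.9 in the siLOC730101 libraries, a log2 fold change of -1.56 (standard error, SE, 0.12; adjusted p of edgeR = 4.34e-06). The labelled cell type was checked with markers of the prostate luminal epithelium. KLK3, which encodes prostate-specific antigen, was between 1487 and 1916 normalized CPM in the libraries, and the luminal keratin gene KRT8 between 538 and 647. The 3 leukocyte markers summed to at most 0.256 and the 3 basal markers to at most 0.632, with PTPRC, CD3E, KRT5 and TP63 at 0 counts in all libraries. The 4 fibroblast markers summed to between 12.6 and 17.2, with COL1A2 at 0, and the 3 endothelial markers to between 5.84 and 9.44, with CDH5 at 0. The labels do not say whether the replicates came from separate cultures, so the p-values measure the spread between these libraries, which may be technical. In such bulk libraries fewer transcripts per cell and fewer cells with the transcript cannot be told apart.

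Across the family the fitted changes were small and mostly above 0. Of the 77 tested members, 68 (88.3%) had a log2 fold change above 0, where 49.6% of all 19349 genes tested did. The median log2 fold change of the members was 0.17, with quartiles of 0.076 and 0.30, beside -0.0021 over all genes tested and 0.017 over the 13561 coding genes tested. Under the other scalings between 62 and 68 members stayed above 0. A gene is called here when its Benjamini-Hochberg adjusted p, from the quasi-likelihood test of edgeR over all genes tested, is under 0.05. This was reached by 1 member, MRPL41, in the higher direction, against a background of 0.212% of genes (41 higher, or 58 with library size as the only scaling). No member was called lower, with a background of 0.0724% of genes (14 lower, or 35 with library size as the only scaling). DESeq2 called 6 members higher and 0 lower, against 1.26% and 0.398% of all genes tested. The members it called were MRPL33, MRPL36, MRPL41, MRPL51, MRPS26 and MRPS34. All except MRPL33 have less than 1.5 kb of exon. Coding genes tested in that length class had a median log2 fold change of 0.22.

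At an unadjusted p under 0.05, 23 members (29.9%) were higher and 0 were lower, while 6.43% of all genes tested were higher and 4.39% lower. In 41 members (53.2%) both siLOC730101 libraries lay above both siControl libraries, which occurred in 21.3% of all genes tested. The reverse, both siLOC730101 libraries below both siControl libraries, occurred in 0 members and in 20.5% of all genes tested. The plot of fitted changes shows these values for every tested member.

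**Figure D1:**
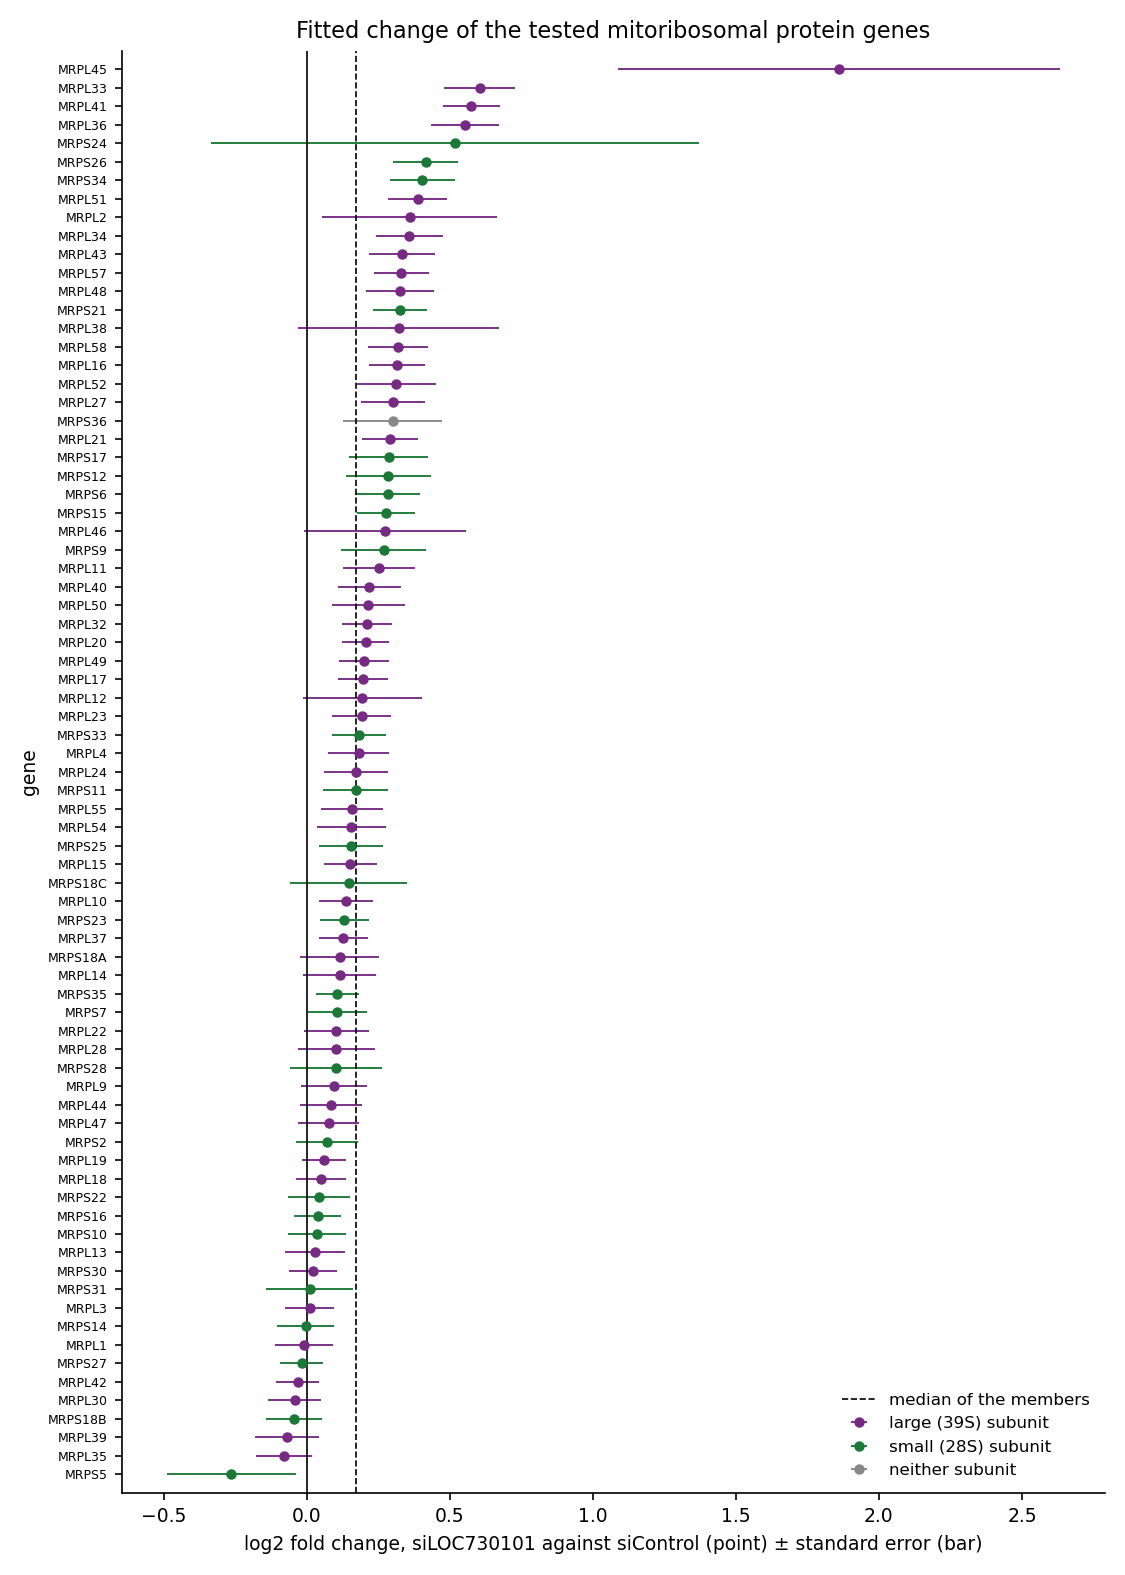
Log2 fold change of siLOC730101 against siControl (horizontal axis) for each of the 77 tested mitochondrial ribosomal protein genes, ordered by value. Points are edgeR estimates with bars of 1 standard error, colours mark the subunit, and the dashed line marks the median of 0.17. MRPL45 lies far to the right with a wide bar, and 9 genes lie below 0.

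Both subunits shared the direction of the median. The 50 tested members of the large subunit had a median log2 fold change of 0.19 with 45 above 0, and the 26 members of the small subunit had a median of 0.14 with 22 above 0. Members with a bacterial counterpart (45 tested, median 0.17) and members specific to mitochondria (30 tested, median 0.19) were also close. The differences between these classes were not tested. Summed over the 78 members, the normalized CPM was 4044 and 4171 in the siControl libraries and 4315 and 4893 in the siLOC730101 libraries. The siLOC730101 mean of 4604 ± 409 (SD, n = 2) was 12.1% above the siControl mean of 4108 ± 89.9 (SD, n = 2), and the libraries did not overlap. The exact permutation test gave a two-sided p of 0.333, the smallest that 2 libraries against 2 allow.

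The siLOC730101 libraries differed from each other in these genes. The members' median log2 difference was 0.17 between siLOC730101 replicate 2 and replicate 1, with 64 of 77 members higher in replicate 2. Between siControl replicate 2 and replicate 1 it was 0.034, with 48 members higher. Against the siControl libraries, siLOC730101 replicate 1 had medians of 0.093 and 0.062 and replicate 2 medians of 0.27 and 0.26. The shift of replicate 1 from the siControl libraries was therefore smaller than the distance between the siLOC730101 replicates. In 57 members (74.0%) the highest of the 4 libraries was siLOC730101 replicate 2, which was the highest for 34.4% of the coding genes tested. Without siLOC730101 replicate 2 the median log2 fold change of the members was 0.067 with 2 members (2.6%) called higher, against 0.355% of all genes. Without siLOC730101 replicate 1 it was 0.28 with 27 members (35.1%) called higher, against 4.3% of all genes. In the plot of library pairs the medians of all coding genes stayed at or below 0.030 in each pair.

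**Figure D2:**
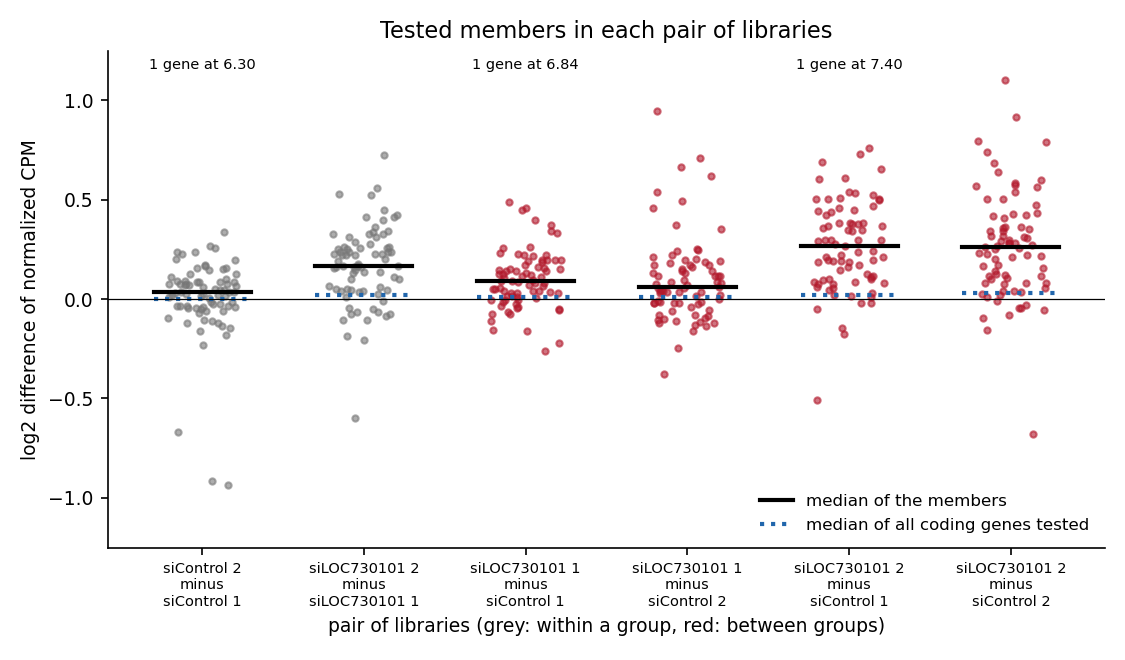
Log2 difference of normalized CPM (vertical axis) of the 77 tested members in each of the 6 pairs of libraries (horizontal axis), with pairs within a group in grey and pairs between groups in red. Black lines mark the median of the members and dotted blue lines the median of the coding genes tested. The member median between the siLOC730101 replicates (0.17) lies above those of siLOC730101 replicate 1 against the siControl libraries (0.093 and 0.062), and MRPL45 falls outside the axis in the 3 pairs with siControl replicate 1.

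MRPL41, a mitochondria-specific protein of the large subunit, was the member called higher by edgeR. Its normalized CPM was 73.5 and 77.5 in the siControl libraries and 100.4 and 124.6 in the siLOC730101 libraries. The siControl libraries lay close together and both siLOC730101 libraries lay above them. The log2 fold change was 0.57 (SE 0.0997, edgeR adjusted p = 0.0187), a 1.49-fold higher level, and over the alternatives its adjusted p lay between 2.3e-13 and 0.0219. After the trend with exon length described further on was subtracted, its log2 fold change was 0.64. That trend did not follow the shortest exons, since coding genes under 1.5 kb had a median log2 fold change of 0.22. The value of 0.64 is therefore not corrected for length. After a trend with exon length and GC content together the log2 fold change of MRPL41 was 0.29. In the same order the values were 0.55 and 0.56 in MRPL33 and 0.50 and 0.42 in MRPL36. The gene lies on the plus strand of chromosome 9 of GRCh38 from 137551879 to 137552555 and has the shortest exons of the family, 582 bases, none of them shared with another gene of the table.

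MRPL33 and MRPL36, both small bacterial-type proteins of the large subunit, had estimates close to that of MRPL41. They did not pass the threshold with edgeR, and DESeq2 called both higher. MRPL33 was at 23.9 and 22.9 normalized CPM in siControl and at 31.5 and 39.6 in siLOC730101, with a log2 fold change of 0.60 (SE 0.12, edgeR adjusted p = 0.0594). MRPL36 was at 20.6 and 20.1 in siControl and at 28.4 and 31.4 in siLOC730101, with a log2 fold change of 0.55 (SE 0.12, edgeR adjusted p = 0.0671). In both genes the groups did not overlap. Over the alternatives the adjusted p lay between 4.4e-06 and 0.238 for MRPL33 and between 8.7e-04 and 0.161 for MRPL36.

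The outermost start of MRPL36 in the deposited table lies head to head with NDUFS6, which encodes an accessory subunit of respiratory complex I, on the opposite strand. NDUFS6, named after its values were seen, was at 38.8 and 42.3 normalized CPM in siControl and at 59.8 and 64.6 in siLOC730101. Its log2 fold change was 0.62 (SE 0.097, edgeR adjusted p = 0.00954), so both genes of this pair had higher libraries after siLOC730101, NDUFS6 past the threshold and MRPL36 not. NDUFS6 has 887 exon bases, and coding genes under 1.5 kb had a median log2 fold change of 0.22. Other head-to-head partners of members, also picked after their values were seen, went both ways. FAU (0.35, beside MRPL49) and APBA3 (0.35, beside MRPL54) were above 0. SKA3 (-0.33, beside MRPL57) and HELQ (-0.17, beside MRPS18C) were below 0. The adjusted p of NDUFS6 lay between 1.3e-07 and 0.0207 over the alternatives.

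The bases just before the RefSeq starts of MRPL41, MRPL33, MRPL36 and MRPL45, whose values are described further on, are shown because these members had the highest well-measured estimates or the widest spread. The sequences are RefSeq promoter windows of GRCh38.p14, 250 bases each, 5′ to 3′ on the strand of the gene. Capitals mark matches on either strand to the letters CCGGAAG (ETS core), AAGATGGC (YY1 core), GCATGCGC (NRF1 core), CACGTG (E-box), TATAAA (known as the TATA box) and CCAAT, the box of that name. The windows lie at chr9:137551629-137551878 on the plus strand (MRPL41), chr2:27771469-27771718 on the plus strand (MRPL33), chr5:1799838-1800087 on the minus strand (MRPL36) and chr17:38296918-38297167 on the plus strand (MRPL45). The outermost start in the table is the RefSeq start in MRPL41 and 2 bases from it in MRPL33, but it lies 145 bases further upstream in MRPL45 and 1529 bases further upstream in MRPL36, so that the window of MRPL36 and part of that of MRPL45 lie inside the gene as the table gives it.
MRPL41: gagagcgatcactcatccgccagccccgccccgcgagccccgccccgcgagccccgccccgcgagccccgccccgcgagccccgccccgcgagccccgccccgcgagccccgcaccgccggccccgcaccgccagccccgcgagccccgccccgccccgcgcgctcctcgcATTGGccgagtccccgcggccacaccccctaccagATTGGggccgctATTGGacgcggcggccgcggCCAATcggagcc
MRPL33: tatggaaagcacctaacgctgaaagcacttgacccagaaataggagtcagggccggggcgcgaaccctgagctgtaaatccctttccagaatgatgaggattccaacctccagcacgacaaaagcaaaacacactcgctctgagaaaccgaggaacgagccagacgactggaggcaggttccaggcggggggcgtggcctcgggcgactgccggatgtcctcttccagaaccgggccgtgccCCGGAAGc
MRPL36: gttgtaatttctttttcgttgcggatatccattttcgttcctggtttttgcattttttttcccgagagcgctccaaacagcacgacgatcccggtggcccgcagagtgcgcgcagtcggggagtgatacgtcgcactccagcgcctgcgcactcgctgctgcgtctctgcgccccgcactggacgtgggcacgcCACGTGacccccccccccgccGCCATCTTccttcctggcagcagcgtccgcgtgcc
MRPL45: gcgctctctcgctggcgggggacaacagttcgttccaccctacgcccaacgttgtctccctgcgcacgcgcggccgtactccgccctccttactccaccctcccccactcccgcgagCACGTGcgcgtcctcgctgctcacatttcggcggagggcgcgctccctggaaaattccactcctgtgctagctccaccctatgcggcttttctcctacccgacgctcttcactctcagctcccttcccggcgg

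The window of MRPL41 was rich in GC (82.8%) and held 4 CCAAT boxes, at -79, -44, -32 and -12 by their first base, counting -1 as the base before the RefSeq start. Of all 22199 windows of coding genes, 1.13% held 4 or more, as did 4 of the 86 windows of members. The window of MRPL33 ended with an ETS core, at -8 to -2. That of MRPL36 held an E-box at -56 to -51 and a YY1 core at -35 to -28. In MRPL45 an E-box stood at -133 to -128, inside the gene of the table, and a YY1 core lay past the RefSeq start, at 14 to 21.

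Over the family, windows of 300 bases, 250 before and 50 after the start, were matched for 70 of the 78 members (86 windows, since some genes have several starts). The ETS core was found in 38.4% of the member windows and in 12.8% of the coding gene windows. The YY1 core was found in 26.7% of the member windows and in 3.53% of the coding gene windows. The NRF1 core was in 6.98% against 3.74%, the E-box in 11.6% against 8.34%, the CCAAT box in 32.6% against 34.7% and the TATA box in 4.65% against 9.47%. The ETS core ends with the 3 letters that begin the YY1 core, and matches of both sharing these letters occurred in 0 member windows and in 4 coding gene windows. The fitted change differed little by motif. The 21 tested members with a YY1 core had a median log2 fold change of 0.21 and the 48 without it 0.17, and the 29 with an ETS core had 0.21 and the 40 without it 0.17. Head-to-head starts were also common, with 17 members (21.8%) starting within 1000 bases of a coding gene on the other strand, against 8.37% of all coding genes. These 17 had a median log2 fold change of 0.21. MRPL46 and MRPS11 form such a pair with each other, and MRPL49 and FAU, MRPL32 and PSMA2, MRPL18 and TCP1, and MRPS12 and SARS2 are further pairs.

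The remaining members are given by their place in the ribosome. In the stalk, where translation factors dock, MRPL10 holds copies of MRPL12, and MRPL11 forms the stalk base. MRPL10 was at 51.3 and 50.4 normalized CPM in siControl and 53.2 and 58.5 in siLOC730101, a log2 fold change of 0.14 (SE 0.094). MRPL11 was at 26.8 and 31.6 in siControl and 31.3 and 38.2 in siLOC730101, a log2 fold change of 0.25 (SE 0.13). MRPL12 was at 10.9 and 13.8 in siControl and 10.7 and 17.7 in siLOC730101, so its libraries overlapped, and the log2 fold change of 0.19 became -0.22 without siLOC730101 replicate 2. None of these stalk genes passed the threshold, with edgeR adjusted p-values of 0.661, 0.50 and 0.812.

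MRPL2 and MRPL3 lie near the peptidyl transferase centre. MRPL3 was at 130.9 and 150.7 normalized CPM in siControl and 138.5 and 144.9 in siLOC730101, a log2 fold change of 0.0091, and 3 of the other scalings or filters moved it below 0. MRPL2 was at 3.50 and 2.18 in siControl and 3.48 and 3.82 in siLOC730101, a log2 fold change of 0.36 (SE 0.31) that ranged from 0.064 without siControl replicate 2 to 0.74 without siControl replicate 1. The low value of MRPL2 was in siControl replicate 2, as in MRPL38 (3.07, 1.60, 3.14 and 2.71 in the same order of libraries) and in MRPL46 (6.09, 3.16, 5.21 and 6.01), which belong to the central protuberance of the large subunit. The log2 fold changes of MRPL38 and MRPL46 were 0.32 and 0.27 and became -0.066 and -0.12 without that library. MRPL44, which lies near the exit of the nascent chain, was at 29.4 and 28.5 in siControl and 30.2 and 31.1 in siLOC730101, a log2 fold change of 0.083 (SE 0.11). MRPL58, a release factor homologue with peptidyl-tRNA hydrolase activity built into the large subunit, was at 50.4 and 46.3 in siControl and 54.8 and 65.8 in siLOC730101. Its groups did not overlap, with a log2 fold change of 0.32 (SE 0.10, edgeR adjusted p = 0.235), or 0.18 without siLOC730101 replicate 2.

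Among the other members of the large subunit, MRPL51 (0.39, adjusted p = 0.138), MRPL34 (0.36, adjusted p = 0.234), MRPL43 (0.33, adjusted p = 0.270) and MRPL57 (0.33, adjusted p = 0.170) had log2 fold changes above 0.3 and groups that did not overlap, without reaching the threshold in edgeR. The same held for MRPL48 (0.33), MRPL16 (0.32), MRPL52 (0.31) and MRPL27 (0.30). Without siLOC730101 replicate 2 the estimates of MRPL51, MRPL34, MRPL43 and MRPL57 were 0.22, 0.13, 0.18 and 0.15, and those of MRPL48, MRPL16, MRPL52 and MRPL27 were 0.24, 0.23, 0.067 and 0.18. At the other end, MRPL35 was at 68.9 and 73.1 normalized CPM in siControl and 61.6 and 72.8 in siLOC730101, a log2 fold change of -0.080. MRPL39 (-0.071), MRPL30 (-0.042) and MRPL42 (-0.032) were next, each with overlapping groups. Their standard errors lay between 0.076 and 0.11, and each of these 4 estimates crossed 0 when 1 library was left out.

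In the small subunit, MRPS26 and MRPS34, both specific to mitochondria, had the highest estimates among members with more than a few reads. MRPS26 was at 72.0 and 76.5 normalized CPM in siControl and 84.5 and 113.5 in siLOC730101, a log2 fold change of 0.41 (SE 0.11, edgeR adjusted p = 0.148). MRPS34 was at 63.3 and 64.3 in siControl and 72.3 and 96.4 in siLOC730101, a log2 fold change of 0.40 (SE 0.11, edgeR adjusted p = 0.157). In both genes replicate 2 of siLOC730101 stood well above the other libraries, and replicate 1 lay between it and the siControl libraries. MRPS26 and MRPS34 have 1016 and 1092 exon bases, and coding genes under 1.5 kb had a median log2 fold change of 0.22. Without replicate 2 of siLOC730101 the log2 fold changes of both members were 0.18. MRPS21, a counterpart of a bacterial protein, was at 62.7 and 64.2 in siControl and 73.4 and 85.7 in siLOC730101 (log2 fold change 0.32, edgeR adjusted p = 0.170, or 0.21 on the log2 scale without that library).

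MRPS12 and MRPS7 contact the messenger RNA and the transfer RNAs on the decoding side. MRPS12 was at 26.3 and 23.8 normalized CPM in siControl and 25.02 and 36.2 in siLOC730101, where only replicate 2 was high, and its log2 fold change of 0.28 became -0.0068 without that library. MRPS7 was at 68.5 and 80.2 in siControl and 73.1 and 87.0 in siLOC730101, with overlapping groups and a log2 fold change of 0.11. MRPS5, which lines the entry of the messenger RNA, was the lowest member. It was at 7.21 and 8.12 in siControl and 7.69 and 5.06 in siLOC730101, a log2 fold change of -0.26 (SE 0.23, edgeR adjusted p = 0.746) that became 0.0028 without siLOC730101 replicate 2.

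Humans have 3 genes of the MRPS18 type, whose products occupy different places. MRPS18A, in the large subunit, was at 15.1 and 15.8 normalized CPM in siControl and 17.4 and 16.1 in siLOC730101, a log2 fold change of 0.11. MRPS18B, in the small subunit, was at 49.9 and 56.3 in siControl and 52.3 and 50.6 in siLOC730101, a log2 fold change of -0.045. MRPS18C, also in the small subunit, was at 6.79 and 6.67 in siControl and 6.57 and 8.32 in siLOC730101, a log2 fold change of 0.15. None of the 3 passed the threshold, with edgeR adjusted p-values between 0.841 and 0.927. MRPS30, of the large subunit, was at 74.98 and 75.7 in siControl and 74.8 and 78.0 in siLOC730101, a log2 fold change of 0.021 with a standard error of 0.084. MRPS36 was at 10.0 and 10.9 in siControl and 11.3 and 14.5 in siLOC730101, a log2 fold change of 0.30 (SE 0.17, edgeR adjusted p = 0.569).

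MRPL45 stood apart through a single library. It encodes a mitochondria-specific protein at the tunnel exit that anchors the ribosome to the inner membrane, and lies on the plus strand of chromosome 17 of GRCh38 from 38297023 to 38323217. Its counts were 4 and 454 in the siControl libraries and 580 and 792 in the siLOC730101 libraries, or 0.074, 9.70, 14.1 and 20.9 normalized CPM. The 95% exact Poisson interval of the 4 counts, taken as independent, runs from 1.09 to 10.2. It covers counting error only and is too narrow if mates were counted apart. The siControl libraries thus differed 131-fold from each other, more than siLOC730101 differed from siControl replicate 2 (1.80-fold by the mean). The fitted log2 fold change was 1.86 (SE 0.77, edgeR adjusted p = 0.382), which became 0.85 when siControl replicate 1 was left out and 7.83 when siControl replicate 2 was. Without siControl replicate 1 the median log2 fold change of the members was 0.16.

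Only 3 of the 11939 genes with over 200 counts in a library differed more than 8-fold between the siControl libraries, MRPL45 and the antigen-presentation genes HLA-C (1040 and 2 counts) and HLA-B (1 and 502 counts). In the siLOC730101 group there were 2 such genes, SMN1 (29 and 462 counts) and DUSP14 (4 and 147 counts). These 4 genes were named after their values were seen. The pseudogene MRPL45P2 had 254 and 248 counts in siControl and 192 and 144 in siLOC730101, and the neighbouring gene SOCS7 had 1358 and 1208 counts in siControl and 878 and 846 in siLOC730101. Neither was low or high in siControl replicate 1. MRPL45 shares no exon base with another gene of the table, and what set siControl replicate 1 apart was not tested.

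The plot of levels by library shows 8 of the members named above, most of them chosen for high or low estimates.

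**Figure D3:**
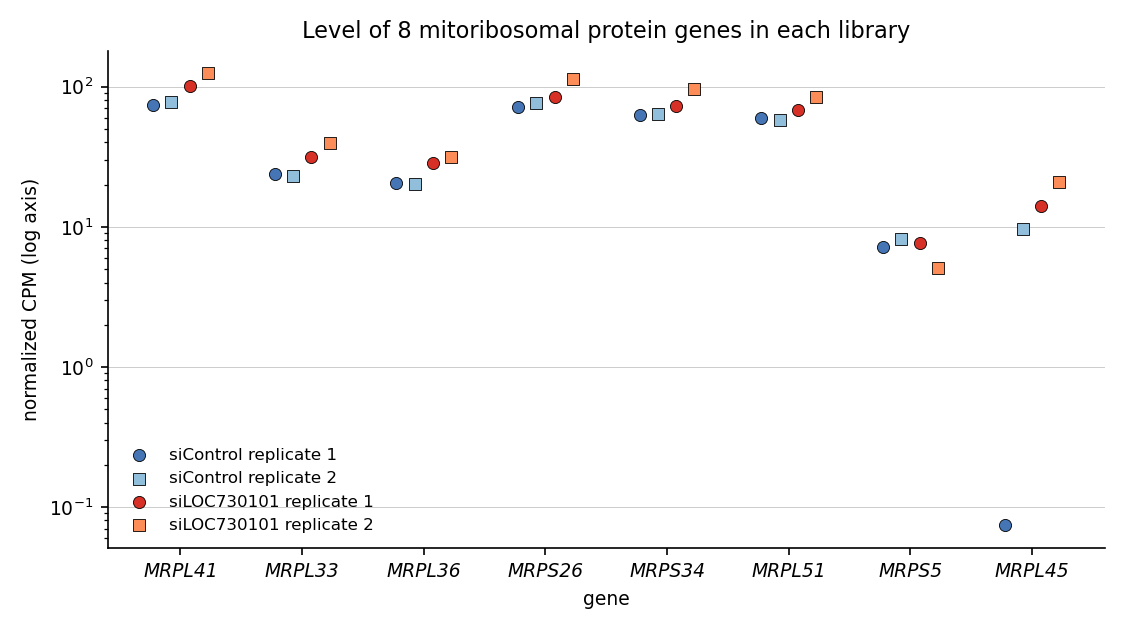
Normalized CPM (vertical log axis) of 8 mitochondrial ribosomal protein genes in each of the 4 libraries. Each point is 1 library, with siControl in blue and siLOC730101 in red and orange, circles for replicate 1 and squares for replicate 2. MRPL45 lies at 0.074 in siControl replicate 1, and MRPS5 has its lowest point, 5.06, in siLOC730101 replicate 2.

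The counting limited what could be read from some members. The counting command had no option to assign reads that overlap exons of 2 genes, so such reads counted for neither, and it did not use strand. Of the 78 members, 41 share at least some exon bases with another gene of the table, and 3 share 50% or more. MRPL53 had 0 counts in all 4 libraries and was the member that was not tested. Of its 685 exon bases, 4 are unshared, the largest overlap being with ENSG00000286883, which had 1 count in siControl replicate 1 and 0 elsewhere. The level of MRPL53 is therefore unknown here rather than low. MRPL12 shares 69.5% of its exon bases with ENSG00000262660, which had 0 counts in all libraries, and MRPS18A shares 50.9% with RSPH9.

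MRPS24, which is in contact with the messenger RNA channel of the small subunit, had 18 and 14 counts in siControl and 20 and 16 in siLOC730101, and shares 606 exon bases with the readthrough gene URGCP-MRPS24, which had 0 counts. Its log2 fold change of 0.52 has a standard error of 0.85. Over the 49 tested members with less than 10% of their exon bases shared, the median log2 fold change was 0.17, as over all tested members. Pseudogenes, which can take or give reads, are listed for 36 members, 79 in all. Over the 42 tested members without one the median log2 fold change was 0.18.

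Compared per length, as normalized CPM per kilobase of exon, the members' levels spread widely. MRPL41 was the highest with a mean of 161 over the 4 libraries (126 and 133 in siControl, 172 and 214 in siLOC730101), and its libraries did not overlap with those of MRPS35, the next, at 112 ± 6.26 (SD, n = 4). MRPS26 (85.3 ± 18.4), MRPL37 (68.2 ± 5.93) and MRPS34 (67.8 ± 14.1) followed, and neighbours among these 4 overlapped. The median over the 77 tested members was 17.3, and 53 members were at 10 or more. The lowest tested levels were those of MRPS24 (0.148 ± 0.033), MRPS5 (0.511 ± 0.099), MRPL38 (0.787 ± 0.21), MRPL46 (0.799 ± 0.21) and MRPS18C (1.46 ± 0.17), each with SD over n = 4. Of the 76 pairs of neighbours in the order, 69 had overlapping libraries, so that the order is fine-grained only in steps of several genes. Several of the low members share exon bases (MRPL38 45.1%, MRPS18C 40.2%), and the order changes when only unshared exon is counted. Per kilobase of unshared exon MRPS34 (98.6) lay above MRPS26 (85.3) and MRPL37 (73.2), and the lowest were MRPS24 (0.192), MRPS5 (0.666), MRPL46 (0.901), MRPL38 (1.43), MRPL2 (2.30) and MRPS18C (2.44).

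**Figure D4:**
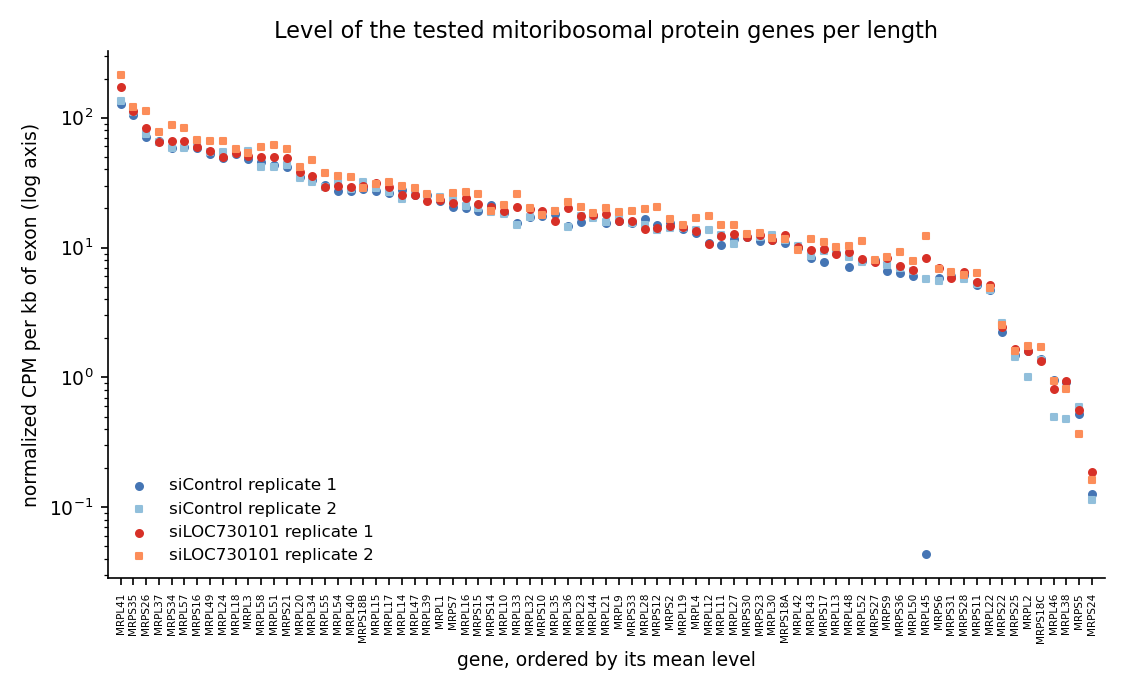
Normalized CPM per kilobase of exon (vertical log axis) of the 77 tested members in each library, ordered by the mean. Each point is 1 library, with siControl in blue and siLOC730101 in red and orange. Levels fall from a mean of 161 in MRPL41 to 0.148 in MRPS24, and the lone low point at rank 64 is MRPL45 in siControl replicate 1.

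The fitted changes moved with exon length and GC content, in the members and in coding genes at large. The exons of the members are short, with a median total of 2544 bases beside 4530.5 over all coding genes of the table. Across the 77 tested members, which share the same 4 libraries and are not independent replicates, Spearman's rho between log2 fold change and exon length was -0.29, and across 13561 coding genes it was -0.24. With GC content rho was 0.44 across the members and 0.19 across coding genes. In exons under 1.5 kb the median log2 fold change was 0.21 in 14 members and 0.22 in 521 coding genes, nearly the same. From 1.5 to 3 kb it was 0.19 in 35 members and 0.099 in 2181 coding genes. From 3 to 6 kb it was 0.18 in 19 members and 0.034 in 5025 coding genes, and at 6 kb or more 0.042 in 9 members and -0.024 in 5834 coding genes.

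The members thus lay above coding genes of like length in the 3 longer classes, by medians and without a test. This was not so in the shortest class, which holds MRPL41, MRPL36, MRPL51, MRPS26 and MRPS34. Of the members called by DESeq2, only MRPL33, with 1532 exon bases, lies outside that class. The same relation to length was present between the siLOC730101 replicates, with rho of -0.33 across the members and -0.29 across coding genes. With GC content rho across the members was 0.42 between these replicates. Against siControl replicates 1 and 2 it was 0.060 and 0.19 for siLOC730101 replicate 1, and 0.42 and 0.52 for replicate 2. After a trend with exon length was subtracted, the median of the members was 0.15 with 66 above 0. This trend removed only part of the relation to length in short exons. It moved MRPS26, with 1016 exon bases, from 0.415 to 0.407, while coding genes under 1.5 kb had a median of 0.22. After a trend with exon length and GC content together, an alternative chosen after seeing the data, the median of the members was 0.14 with 65 above 0. That joint trend took MRPS26 to 0.198, MRPS34 from 0.403 to 0.186, MRPL34 from 0.357 to 0.184 and MRPL58 from 0.318 to 0.142. Other members moved less, such as MRPL57 from 0.331 to 0.281 and MRPL48 from 0.325 to 0.333. The part of length, GC content and the difference between the siLOC730101 replicates in the members' shift was not tested further.

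**Figure D5:**
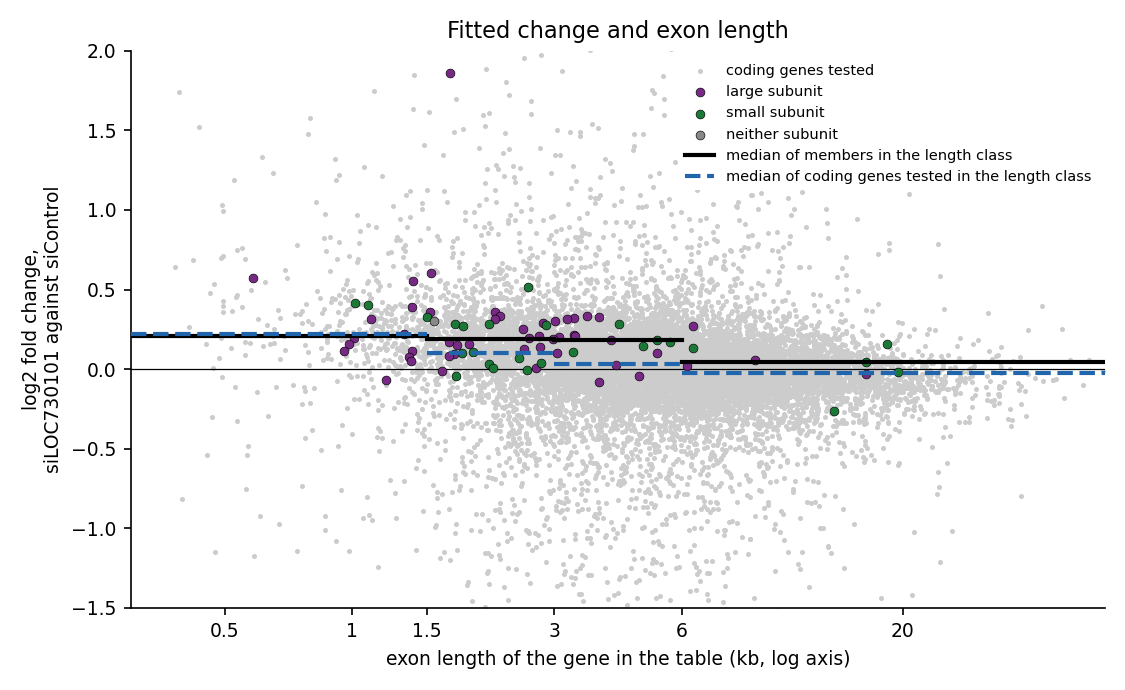
Log2 fold change of siLOC730101 against siControl (vertical axis) and exon length in kilobases (horizontal log axis) for the coding genes tested (grey, 128 outside the axes) and for the tested members (coloured by subunit). Solid black and dashed blue lines give the medians of members and coding genes in 4 length classes, which are 0.21 and 0.22 under 1.5 kb and 0.18 and 0.034 from 3 to 6 kb.

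Other genes of mitochondrial translation were read from the same fit. The 5 mitoribosomal proteins that are named outside the MRPL and MRPS pattern had log2 fold changes above 0 in 5 of 5, with a median of 0.33 and 0 called by edgeR. CHCHD1, a small subunit protein with a twin cysteine motif, was at 32.2 and 34.5 normalized CPM in siControl and 41.6 and 50.7 in siLOC730101 (log2 fold change 0.47, edgeR adjusted p = 0.104, under the threshold in 5 of 14 alternatives), and PTCD3, a pentatricopeptide repeat protein of the small subunit, had the lowest estimate of the 5 at 0.026. At an unadjusted p under 0.05, 3 of the 5 were higher, against 6.43% of all genes tested. These 3, AURKAIP1, CHCHD1 and GADD45GIP1, have 1381, 1483 and 1769 exon bases. At that p 139 of 521 coding genes under 1.5 kb and 355 of 2181 from 1.5 to 3 kb were higher. Of 22 assembly factors, 21 were tested, 15 of them had estimates above 0 with a median of 0.087, and 0 were called. The inner membrane protein MPV17L2 had the highest (0.37) and the GTPase MTG1 the lowest estimate (-0.35), with adjusted p-values of 0.287 and 0.553 in edgeR, and MPV17L2 was at 0.18 without siLOC730101 replicate 2. The methyltransferase gene MRM2 had too few reads to be tested.

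Among 15 translation factors and messenger RNA-binding proteins of mitochondria, 1 was called higher and 0 lower, with a median of 0.092 on the log2 scale. The gene called was SLIRP, whose product binds mitochondrial messenger RNAs together with LRPPRC. SLIRP was at 24.96 and 25.7 normalized CPM in siControl and 43.3 and 42.5 in siLOC730101, a log2 fold change of 0.76 (SE 0.10, edgeR adjusted p = 0.00333), with both libraries of a group close together. Over the alternatives its adjusted p lay between 5.3e-09 and 0.00432, and its log2 fold change between 0.74 and 0.78 when 1 library was left out. Its partner LRPPRC was at 583 and 595 in siControl and 581 and 533 in siLOC730101 (log2 fold change -0.081, edgeR adjusted p = 0.756). The lowest estimate of this list was that of the release factor homologue MTRF1 (-0.27, edgeR adjusted p = 0.638).

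Regulators of mitochondrial gene expression were close to 0, with a median log2 fold change of 0.066 over 12 genes and 0 called. The estrogen-related receptor gene ESRRA had the highest estimate, at 75.2 and 77.7 normalized CPM in siControl and 91.6 and 121 in siLOC730101 (log2 fold change 0.48, edgeR adjusted p = 0.0919), and GABPB1, which encodes the partner of the ETS factor GABPA, the lowest (-0.10). ESRRA passed the threshold in 8 of 14 alternatives, and its log2 fold change ranged from 0.26 without siLOC730101 replicate 2 to 0.67 without replicate 1. NRF1 (0.0047) and YY1 (-4.2e-04), whose core motifs were searched above, had estimates next to 0.

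The messenger RNAs of the mitochondrial genome, which the mitochondrial ribosome translates, had a median on the other side of 0. Of the 13, 10 had log2 fold changes below 0, the median was -0.16 and 0 were called by edgeR in either direction. At an unadjusted p under 0.05, 7 were lower and 2 higher, against 4.39% and 6.43% of all genes tested. In 9 of them both siLOC730101 libraries lay below both siControl libraries, which occurred in 20.5% of all genes tested. The reverse occurred in 2, MT-ND4L and MT-ATP8, and in 21.3% of all genes tested. The 3 transcripts above 0 were the shortest of the 13, MT-ND3 (346 exon bases), MT-ND4L (297) and MT-ATP8 (207). The lowest, MT-CO3, a core subunit of cytochrome c oxidase, was at 2304 and 2072 normalized CPM in siControl and 1628 and 1893 in siLOC730101 (log2 fold change -0.31, edgeR adjusted p = 0.116). It passed the threshold in 8 of 14 alternatives and was at -0.20 without siLOC730101 replicate 1 and at -0.43 without replicate 2. The highest, MT-ND3, of complex I, was at 334 and 475 in siControl and 426 and 640 in siLOC730101, with overlapping groups (log2 fold change 0.40, edgeR adjusted p = 0.337). It passed in 4 of 14 alternatives and ranged from 0.075 without siLOC730101 replicate 2 to 0.68 without siControl replicate 2. The difference between these transcripts and the nuclear members was not tested.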

How the data were processed

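RNA was measured in 4 libraries, 2 siControl and 2 siLOC730101. The deposited values are counts: the authors trimmed reads with Trim Galore, aligned them (STAR by the paper, BWA by the submitters' processing notes) and counted them per gene with featureCounts, without normalization. The table's header names hg38 with gencode 41, while the paper's methods name hg19, and its coordinates are used on GRCh38. Among genes with 1 to 20 counts, 66.0% to 70.1% of counts were even, so mates appear to have been counted apart.

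The test was run with edgeR 4.0.16 in R 4.3.3 (filterByExpr defaults, TMM, quasi-likelihood F test) over all 19349 genes tested, and p-values were adjusted by Benjamini-Hochberg. DESeq2 1.42.0 was an alternative, although the study used it. A call is an adjusted p under 0.05. Depth was 39213498 to 53368158 counts, and the chi-square per degree of freedom between replicates was 8.96 and 10.3, so neither pair held the same counts within sampling noise. Promoters were searched with Python 3.11.15. Alternatives covered scaling, filters, thresholds, halved counts and left-out libraries.

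The members and lists were chosen with earlier results of these data known. Genes named were members called, the 6 highest and 6 lowest log2 fold changes, the 5 highest and 5 lowest levels per kilobase, members with set roles, untested members, and called, highest and lowest members of the lists. MRPS21, MRPL16, MRPL27, MRPL34, MRPL43, MRPL48, MRPL52, MRPL51, MRPL57, LRPPRC and genes so described were named after their values were seen. The protein sequences of the members are not used here. Values of 2 further marker genes are not reported here.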

Additional observations from a re-analysis of the deposited data

How the results depend on the processing

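The median log2 fold change of the members ranged from 0.067 to 0.28 when 1 library was left out and from 0.13 to 0.18 under the other alternatives. The number of members called higher was 1 with DESeq2 size factors, upper-quartile factors and robust moderation, 2 with library size only, 3 with an adjusted p under 0.10, halved counts, the legacy method off or a mean count above 50, 6 with DESeq2, 9 with no filter beyond 1 count and 23 at an unadjusted p under 0.05. It ranged from 2 to 27 when 1 library was left out (2 without siLOC730101 replicate 2, 3 without either siControl library, 27 without siLOC730101 replicate 1). A lone library is then assumed to vary like the other group. No alternative called a member lower. Settings that called more members higher also called more of all genes tested. These were 41 of 19349 genes in the main test and 58 of 19349 with library size only. They were 87 of 19349 with the legacy method off, 113 of 16949 with halved counts and 141 of 14245 with a mean count above 50. DESeq2 called 244 of 19349 genes higher, and the test with no filter beyond 1 count called 324 of 31960. At an adjusted p under 0.05 the number of all genes called higher ranged from 38 to 923 over the settings, against 41, and at an unadjusted p under 0.05 it was 1244. In the fit with a replicate block 12 members were called higher, with a median of 0.16, against 2.51% of all genes called higher. The replicate numbers share only a number: the correlation of same-numbered libraries' deviations was -4.7e-04 over all genes tested and 0.25 over the members. MRPL45 weighs heavily in the value over the members. Its log2 difference between the siControl libraries was 6.30, where the SD of these differences over the members was 0.746. The summed level stayed above siControl by 0.068 to 0.26 (log2) throughout.

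Some estimates crossed 0. Leaving out 1 library, they ranged from -0.22 (without siLOC730101 replicate 2) to 0.52 (without siLOC730101 replicate 1) in MRPL12, and between the same libraries from -0.0068 to 0.54 in MRPS12, -0.037 to 0.32 in MRPS18C, -0.012 to 0.059 in MRPS30, -0.027 to 0.24 in MRPS7, -0.21 to 0.044 in MRPL35 and -0.16 to 0.020 in MRPL39. In MRPS5 (-0.59 to 0.0028) and MRPL42 (-0.062 to 0.0025) the higher value was without siLOC730101 replicate 2. From leaving out siControl replicate 1 to leaving out siControl replicate 2 the estimates ran from -0.088 to 0.12 in MRPL3, -0.10 to 0.025 in MRPL30, -0.13 to 0.047 in MRPS18B, 0.87 to -0.066 in MRPL38 and 0.83 to -0.12 in MRPL46. Without siControl replicate 1 MRPS7 was at -0.0022, and without siLOC730101 replicate 2 MRPL3 was at -0.026. With library size only, MRPL3 was at -0.029 and MRPS30 at -0.017, with upper-quartile factors at -0.022 and -0.011, and with a mean count above 50 MRPL3 was at -0.0026. NRF1 was at -0.0016 with halved counts, -0.035 with library size only, -0.0073 with a mean count above 50, -0.027 with upper-quartile factors and -0.13 to 0.14 when 1 library was left out. PTCD3 was at -0.010 and -0.0043 with library size only and upper-quartile factors and at -0.031 to 0.089 when 1 library was left out, and YY1 was at 9.6e-05 with the legacy method off, 0.0010 with the replicate block and -0.067 to 0.073 when 1 library was left out. The cause was not tested. MRPS24, MRPL2, MRPL38 and MRPL46 were among the members with few counts, between 14 and 329 in a library.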
